A study of Mus musculus with 22 samples.

Results

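The clustered histone genes of the mouse are described here in striatal tissue of adult male C57BL/6J mice, by brain region and by oxycodone intake. They were taken as every gene whose symbol begins with Hist1h, Hist2h, Hist3h or Hist4h in the GENCODE M21 annotation and that had any count. Of 70 such genes in that annotation, 60 had a row in the table of counts and 56 had at least 1 count, out of 19437 genes with any count. The 56 comprised 13 H4, 12 H2B, 18 H2A, 7 H3 and 6 H1 genes. By symbol, 44 of them belonged to cluster 1 on chromosome 13. Of these 43 lay in a pair of blocks, and Hist1h2al, annotated as a processed pseudogene, lay apart at 51202727 to 51203065. Cluster 2 on chromosome 3 held 9, cluster 3 on chromosome 11 held 2, and Hist4h4 stood alone on chromosome 6.

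Ribosome-depleted total RNA of bulk tissue was sequenced in 22 libraries, in 4 groups. There were 5 libraries of dorsal striatum from mice that had taken oxycodone by self-administration, 5 of dorsal striatum from yoked mice given saline, 6 of ventral striatum from oxycodone mice and 6 of ventral striatum from yoked saline mice. Oxycodone, an opioid analgesic, was given at 0.25 mg/kg per infusion in sessions of 4 h a day over 14 days. Yoked mice received saline on the same schedule. No label ties a library to an animal, so the p-values measure the spread between libraries.

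Histones are the proteins around which DNA is wound. H2A, H2B, H3 and H4 form the core of the nucleosome and H1 binds the DNA that links nucleosomes. The clustered genes are known as replication-dependent, because dividing cells make most of their mRNA in S phase. Their mRNAs end in a short stem-loop, bound by the protein SLBP, in place of a poly(A) tail, although poly(A) forms of several are known in cells that no longer divide. Variant histones such as H3.3 and H2A.Z come from single genes outside the clusters, carry poly(A) tails and are made throughout the cell cycle. Most cells of the adult striatum are neurons and glia that no longer divide.

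The stem-loop was the feature that most of these genes shared at the level of sequence, and the letters of its stem set the H4 genes apart from the others. A search of the transcript strand for a pair of fully complementary arms of 6 bases, the first beginning with GG, around a loop of 4 bases beginning with TT found it in 40 of the 56 genes. The same search matched 0.558% of all 22205 annotated genes, and 1.01% of 2773 genes with a transcript of at most 1000 bases. Of the 13 H4 genes, 11 had it, in every case with a stem of GGCCCT or GGTCCT, while the other classes carried GGCTCT in every gene where it was found. The examples are an H4 gene with the largest difference between regions, an H4 gene of the other stem, an H4 gene with almost no shared sequence, and genes of H1, H2A and H2B. Capitals mark the paired arms.
Hist1h4m, base 384 of a 402-base transcript: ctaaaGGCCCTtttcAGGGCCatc
Hist1h4j, base 374 of a 774-base transcript: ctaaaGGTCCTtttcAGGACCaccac
Hist2h4, base 358 of a 1630-base transcript: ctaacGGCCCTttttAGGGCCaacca
Hist1h1c, base 705 of a 1560-base transcript: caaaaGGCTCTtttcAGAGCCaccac
Hist3h2a, base 488 of a 2146-base transcript: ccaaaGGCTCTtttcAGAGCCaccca
Hist1h2bb, base 470 of a 508-base transcript: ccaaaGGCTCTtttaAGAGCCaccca
In Hist1h4m the annotated transcript stopped 3 bases after the stem-loop, whereas in Hist2h4, Hist1h1c and Hist3h2a it ran on far beyond it.

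Promoter letters also separated the H4 genes. RefSeq promoters on GRCm38.p6, from 250 bases before to 50 bases after the start, were matched for 48 of the 56 genes and searched on both strands. CCAAT was found in 3 of 12 H4 promoters and in all 36 of the other classes, so in 81.25% of the members, against 37.4% of all 32851 promoters. TATAAA was found in 58.3% of the members and 13.6% of all promoters. ATTTGCAT, the octamer letters, was found in 5 of 14 H2A and 3 of 10 H2B promoters and in no H1, H3 or H4 promoter, against 1.74% of all promoters. The promoter of an H4 gene and that of an H2A gene are shown with these motifs in capitals, each in the direction of transcription.
Hist1h4m, chr13:21811496-21811795, plus strand: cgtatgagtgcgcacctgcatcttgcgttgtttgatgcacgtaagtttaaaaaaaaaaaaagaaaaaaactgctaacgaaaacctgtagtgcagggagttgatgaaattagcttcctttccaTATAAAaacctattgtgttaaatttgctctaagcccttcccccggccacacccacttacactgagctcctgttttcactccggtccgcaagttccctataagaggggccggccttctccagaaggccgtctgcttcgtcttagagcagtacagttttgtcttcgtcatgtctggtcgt
Hist3h2a, chr11:58954435-58954734, plus strand: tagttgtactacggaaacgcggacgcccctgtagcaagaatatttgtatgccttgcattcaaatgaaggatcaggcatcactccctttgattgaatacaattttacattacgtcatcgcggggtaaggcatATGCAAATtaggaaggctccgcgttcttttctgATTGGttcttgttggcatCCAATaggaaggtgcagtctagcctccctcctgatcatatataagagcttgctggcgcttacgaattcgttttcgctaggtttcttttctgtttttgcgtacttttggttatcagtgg
The promoter of Hist1h4n, on the other strand of the same block, had the same base as that of Hist1h4m at 298 of 299 aligned positions. These matches describe letters in a window and not sites of binding.

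Library totals ran from 13797075 to 17836414 counts in dorsal oxycodone, from 11314079 to 21921963 in dorsal saline, from 8408829 to 10007992 in ventral oxycodone and from 9172185 to 11000345 in ventral saline libraries. The histone genes took 0.115% to 0.134%, 0.101% to 0.151%, 0.0469% to 0.0586% and 0.0412% to 0.0565% of them in the same order of groups. A count of 0 in a library allows up to 3 counts, or 0.137 to 0.357 CPM (counts scaled to a common library size). This limit covers counting error only and takes counts as independent, so it is too low where counts come in pairs. Of all counts from 1 to 20, 71.8% to 78.7% were even numbers in the dorsal libraries and 42.0% to 44.5% in the ventral ones. Region and this difference between the sets of libraries cannot be told apart. By marker genes, 2 ventral libraries were unlike their groups. Replicate 6 of oxycodone had high choroid plexus markers, and replicate 6 of saline had low markers of D1 medium spiny neurons.

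Levels are CPM on TMM-scaled library sizes, and per kilobase of exon where genes are compared with each other. Per kilobase, the highest levels over the 22 libraries were those of Hist1h4h at 204.5 CPM, Hist1h4d at 137 CPM, Hist1h4k at 104 CPM, Hist1h4f at 77.3 CPM and Hist1h4c at 72.5 CPM, all H4 genes. Hist3h2a, an H2A gene of cluster 3, followed at 32.2 CPM per kilobase. Of the genes with a mean of at least 1 CPM, Hist1h2ac was the lowest at 0.957 CPM per kilobase. At the lower end, Hist1h2ap, Hist1h2ao and Hist1h2al averaged 0.00523, 0.0196 and 0.0412 CPM over the 22 libraries. The 5 comparisons tested between 33 and 44 of the 56 genes, 12 genes were too low for any, and these were 9 H2A or H2B genes, Hist1h1t, Hist2h3c1 and Hist2h3c2.

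The summed level of the 56 genes was higher in dorsal than in ventral striatum in every library. It averaged 1243 ± 68.2 CPM in dorsal and 528 ± 50.04 CPM in ventral striatum of oxycodone mice (SD, n = 5 and 6), and 1215 ± 184 CPM in dorsal and 513 ± 53.1 CPM in ventral striatum of saline mice (SD, n = 5 and 6). The H4 genes made up most of the difference. Their summed level was 3.01 times as high in dorsal as in ventral striatum of oxycodone mice and 3.08 times as high in saline mice, while that of the other 43 genes was 1.68 and 1.66 times as high. H4 genes therefore took 64.6% of histone counts in dorsal oxycodone and 50.6% in ventral oxycodone libraries, and 64.8% in dorsal saline and 50.1% in ventral saline libraries. In these bulk samples, fewer cells of a type and less RNA per cell cannot be told apart. Nor can region and set of libraries in any dorsal against ventral comparison, since library totals and shares of even counts differed with region.

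**Figure D1:**
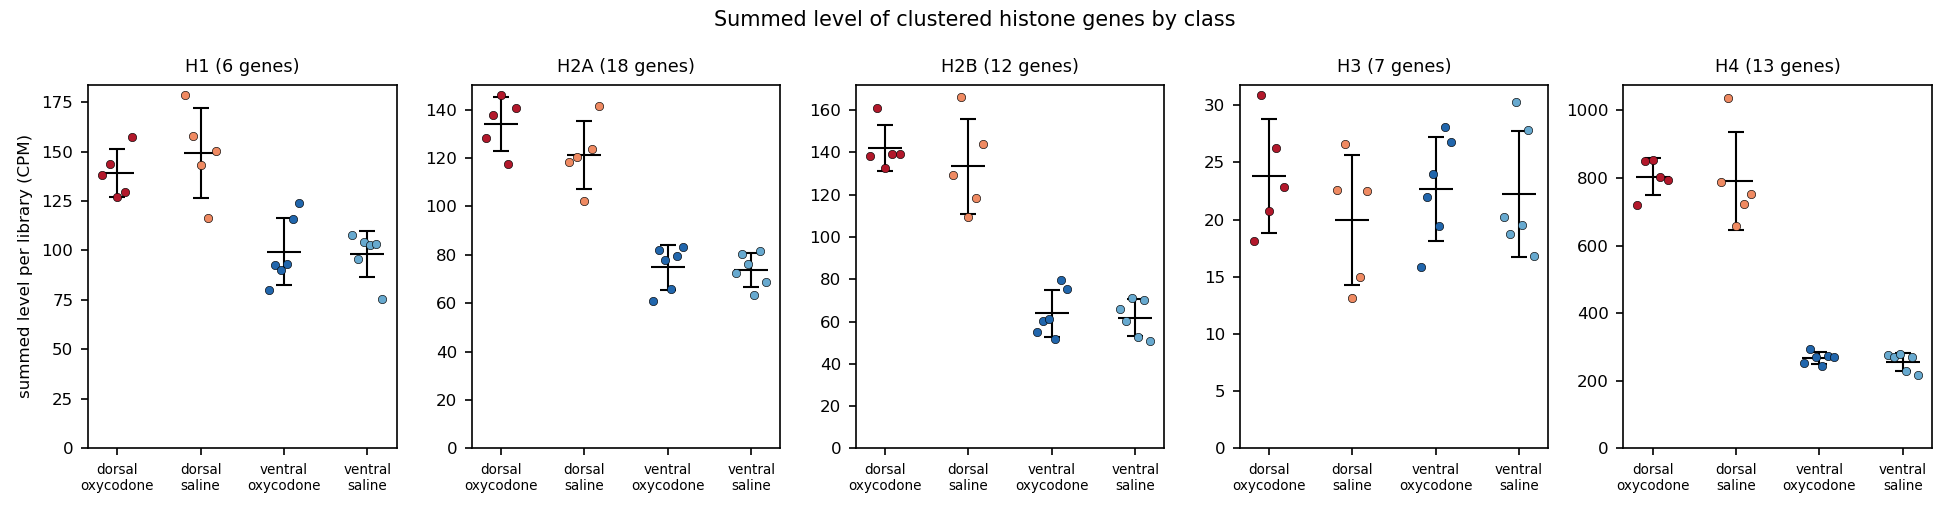
Summed level of each histone class in each library, in CPM, for dorsal oxycodone, dorsal saline, ventral oxycodone and ventral saline striatum. Points are libraries, long bars the mean and whiskers the SD. H4, H2A and H2B libraries of the dorsal striatum lie above all ventral ones, and the H3 groups overlap.

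Gene by gene, dorsal striatum exceeded ventral striatum in most of the histone genes tested. In oxycodone mice 42 genes were tested, of which 28 were higher and 1 lower in dorsal striatum (edgeR quasi-likelihood test, two-sided, Benjamini-Hochberg adjusted over all genes, threshold 0.05). Of all 14375 genes tested there, 23.5% were higher and 23.7% lower, 47.2% in all. In saline mice 39 were tested, of which 26 were higher and 1 lower, against 23.6% and 22.3% of all 14433 genes, 45.8% in all. The median log2 change of the histone genes was 0.98 in oxycodone and 1.04 in saline mice, against -0.01 over all genes in both. The 2 comparisons share no library. Both called 21 genes higher, out of 38 tested in both, and both called Hist2h3b lower.

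All 13 H4 genes were higher in dorsal striatum in both comparisons, against 23.5% of all genes in oxycodone and 23.6% in saline mice. Their median log2 change was 1.67 in oxycodone and 2.05 in saline mice. H4 pairs with H3 in the core of the nucleosome. The largest difference was that of Hist1h4m (chromosome 13, 21811746 to 21812147 on GRCm38). Its level was 12.0, 19.8, 14.4, 14.5 and 16.6 CPM in the dorsal oxycodone libraries and 0.228 to 0.903 CPM, median 0.471 CPM, in the ventral oxycodone ones. In saline mice it was 15.8, 35.1, 13.4, 12.0 and 15.3 CPM in dorsal libraries and 0.0943 to 0.851 CPM, median 0.379 CPM, in ventral ones. Every dorsal library was thus above every ventral one by a wide margin, and dorsal saline replicate 2 was the highest. The log2 change was 4.89 ± 0.29 (SE, edgeR adjusted p = 3.49e-09) in oxycodone mice and 5.40 ± 0.41 (SE, edgeR adjusted p = 1.77e-07) in saline mice.

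Hist1h4n, its near-identical neighbour at 21831767 to 21832196, showed the same pattern. It had 11.3, 20.7, 13.5, 16.9 and 11.3 CPM in dorsal oxycodone and 0.322 to 1.25 CPM, median 0.546 CPM, in ventral oxycodone libraries. It had 20.3, 19.4, 12.2, 15.95 and 19.5 CPM in dorsal saline and 0.214 to 1.19 CPM, median 0.449 CPM, in ventral saline libraries. Here too no libraries of the regions overlapped, and the log2 change was 4.42 ± 0.29 and 4.98 ± 0.32 (SE). Hist1h4j (log2 3.00 in oxycodone and 2.90 in saline mice), Hist1h4h (2.31 and 2.52), Hist1h4c (2.18 and 2.20) and Hist1h4k (2.01 and 2.05) followed in oxycodone mice. In saline mice Hist1h4i (1.63 and 2.38) stood between Hist1h4h and Hist1h4c.

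Hist1h4h (chromosome 13, 23531050 to 23531519), with the highest level per kilobase, had 179, 187, 179.6, 156 and 175 CPM in dorsal oxycodone and 28.2 to 38.6 CPM, median 36.1 CPM, in ventral oxycodone libraries. In saline mice it had 162, 249.9, 121, 159 and 160.1 CPM in dorsal and 21.8 to 40.1 CPM, median 30.3 CPM, in ventral libraries. The regions did not overlap in either treatment. The smallest changes of the class were those of Hist1h4d and Hist2h4 in both comparisons. Hist2h4 of cluster 2 (chromosome 3, 96261682 to 96263311) had 52.4, 64.4, 57.8, 66.7 and 58.7 CPM in dorsal oxycodone and 27.5 to 33.0 CPM, median 29.4 CPM, in ventral oxycodone libraries. Saline mice had 53.5, 83.5, 54.7, 48.7 and 55.5 CPM in dorsal and 25.4 to 33.0 CPM, median 29.7 CPM, in ventral libraries. Its dorsal libraries were again all above the ventral ones, at a log2 change of 0.99 ± 0.09 and 0.99 ± 0.13 (SE). Hist1h4d changed by 0.97 and 0.91 on the log2 scale. Hist1h4f (1.23 and 1.31) and Hist4h4 (1.24 and 1.38) came next.

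**Figure D2:**
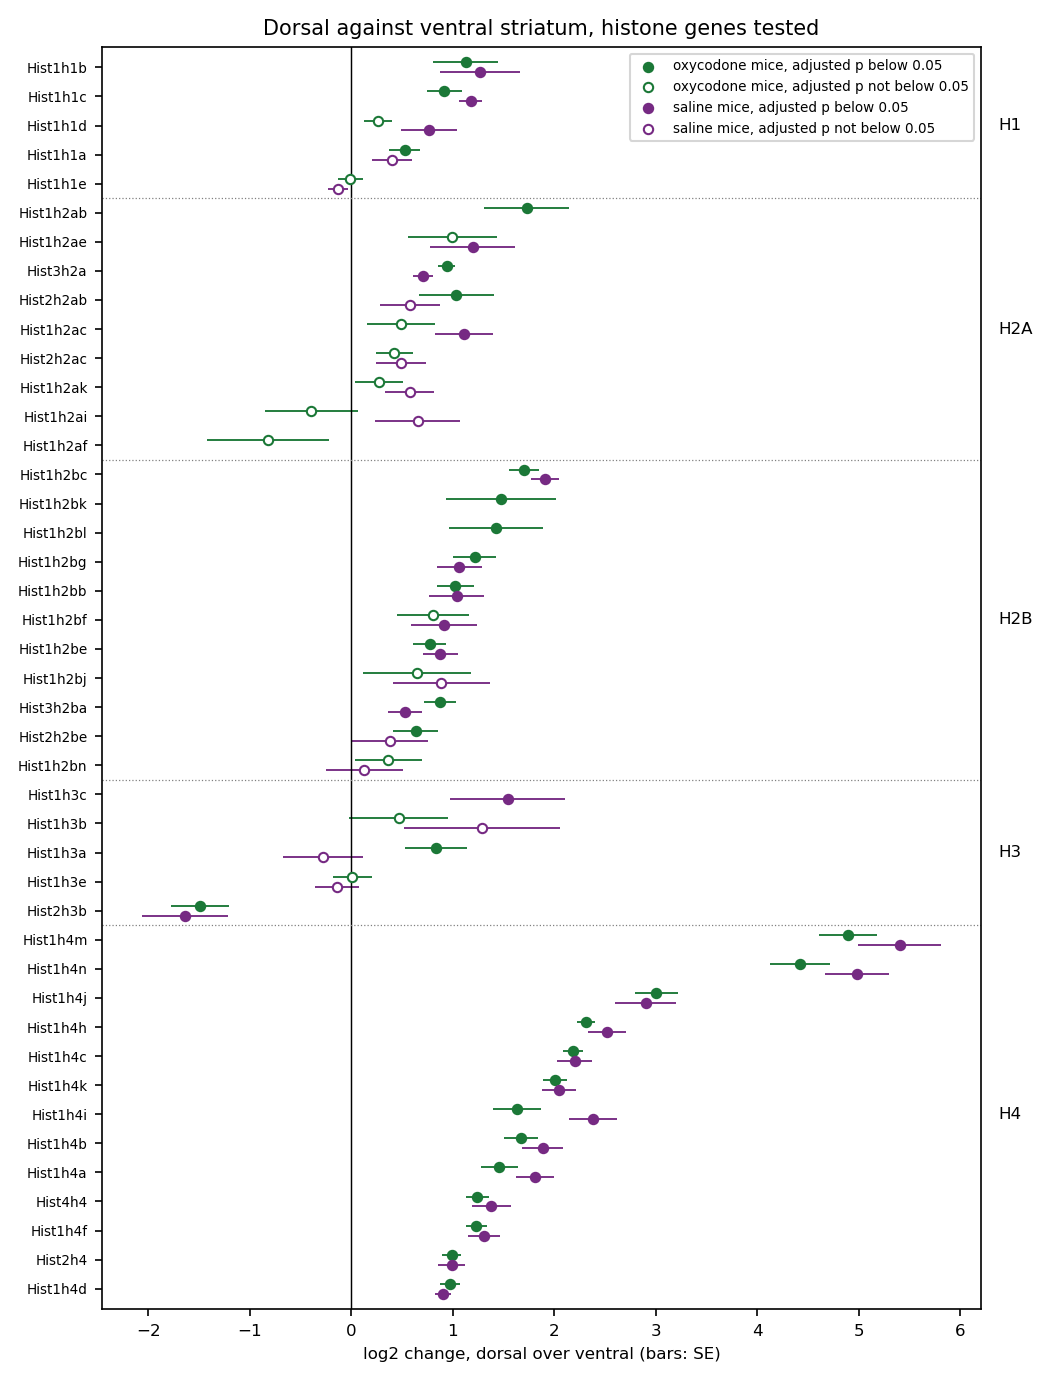
Log2 change of each tested histone gene, dorsal over ventral striatum, in oxycodone and saline mice, ordered by class, with SE bars. Filled points passed an adjusted p of 0.05. All 13 H4 genes lie to the right of 0, led by Hist1h4m and Hist1h4n, and Hist2h3b lies to the left in both.

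Among the H2B genes, 8 of 11 tested were higher in dorsal striatum of oxycodone mice (23.5% of all genes). In saline mice 6 of 9 were higher (23.6% of all genes). None was lower in either, against 23.7% and 22.3% of all genes. Hist1h2bc led them, with 60.9, 46.3, 47.1, 51.3 and 45.5 CPM in dorsal oxycodone and 11.0 to 19.98 CPM, median 14.8 CPM, in ventral oxycodone libraries. Levels in saline mice were 47.5, 57.2, 38.0, 46.6 and 55.0 CPM in dorsal and 10.2 to 16.5 CPM, median 12.6 CPM, in ventral libraries. The regions did not overlap, and the log2 change was 1.71 ± 0.15 and 1.91 ± 0.14 (SE). Of the H2A genes, 3 of 9 and 3 of 7 were higher, against 23.5% and 23.6% of all genes, Hist3h2a in both (log2 0.94 and 0.71). Hist3h2a overlaps Trim17 on the same strand, so reads of these genes may not have been separable. Hist1h2ab had a log2 change of 1.73 ± 0.42 (SE, edgeR adjusted p = 0.00287) in oxycodone mice and was not tested in saline mice. H2A and H2B genes lie in divergent pairs, 9 of which had counts with starts within 500 bases. The H2B gene had the higher mean CPM in 5 of the 9 pairs. In one of these Hist1h2bc had 26.1 CPM per kilobase beside Hist1h2ac at 0.957 CPM per kilobase.

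Of 5 H1 genes tested, 3 were higher and 0 lower in dorsal striatum in each comparison. Of all genes, 23.5% were higher and 23.7% lower in oxycodone mice, and 23.6% and 22.3% in saline mice. Hist1h1c, a linker histone, had 51.2, 57.0, 38.7, 48.6 and 55.4 CPM in dorsal oxycodone and 19.8 to 41.8 CPM, median 23.3 CPM, in ventral oxycodone libraries. In saline mice it had 56.6, 55.8, 56.5, 40.1 and 52.0 CPM in dorsal and 18.4 to 26.5 CPM, median 23.4 CPM, in ventral libraries. Only ventral oxycodone replicate 6 reached into the dorsal range. The log2 change was 0.92 ± 0.17 and 1.18 ± 0.12 (SE, edgeR adjusted p = 0.000473 and 2.01e-06). Hist1h1b was higher too (1.13 and 1.27). Hist1h1a was called higher in oxycodone mice only, and Hist1h1d in saline mice only. Hist1h1e, another linker histone gene, had 30.5, 25.8, 32.2, 27.8 and 39.4 CPM in dorsal oxycodone and 26.3 to 34.7 CPM, median 31.1 CPM, in ventral oxycodone libraries. The saline libraries had 31.8, 37.5, 33.4, 26.7 and 34.9 CPM in dorsal and 33.3 to 37.6 CPM, median 35.7 CPM, in ventral libraries. These groups overlapped, and the log2 changes of -0.01 ± 0.12 and -0.13 ± 0.10 (SE) did not pass the test. Hist1h1e overlaps Hist1h2be on the same strand, so reads of the 2 genes may not have been separable.

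Of 4 H3 genes tested in oxycodone mice, 1 was higher and 1 lower. Of 5 tested in saline mice, 1 was higher and 1 lower. These counts were near the shares of all genes, 23.5% and 23.7% in oxycodone and 23.6% and 22.3% in saline mice. The higher ones were Hist1h3a in oxycodone mice (log2 0.83 ± 0.31, SE, edgeR adjusted p = 0.0335) and Hist1h3c in saline mice (log2 1.54 ± 0.57, SE, edgeR adjusted p = 0.0381). The lower one was Hist2h3b in both. Hist2h3b of cluster 2 (chromosome 3, 96268654 to 96269141) had 1.39, 2.87, 1.15, 2.01 and 1.36 CPM in dorsal oxycodone and 3.97 to 6.12 CPM, median 4.98 CPM, in ventral oxycodone libraries. In saline mice it had 3.02, 2.99, 1.58, 1.00 and 0.468 CPM in dorsal and 4.06 to 7.36 CPM, median 5.27 CPM, in ventral libraries. Every dorsal library was below every ventral one, with a log2 change of -1.49 ± 0.29 and -1.64 ± 0.42 (SE, edgeR adjusted p = 0.000462 and 0.00559). All of its 50-base runs occur in another gene on either strand, and it overlaps Gm20628 on the opposite strand. Its counts may therefore depend on how such reads were assigned. Hist1h3e changed by 0.01 ± 0.19 and -0.14 ± 0.22 (SE) on the log2 scale, without passing the test.

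**Figure D3:**
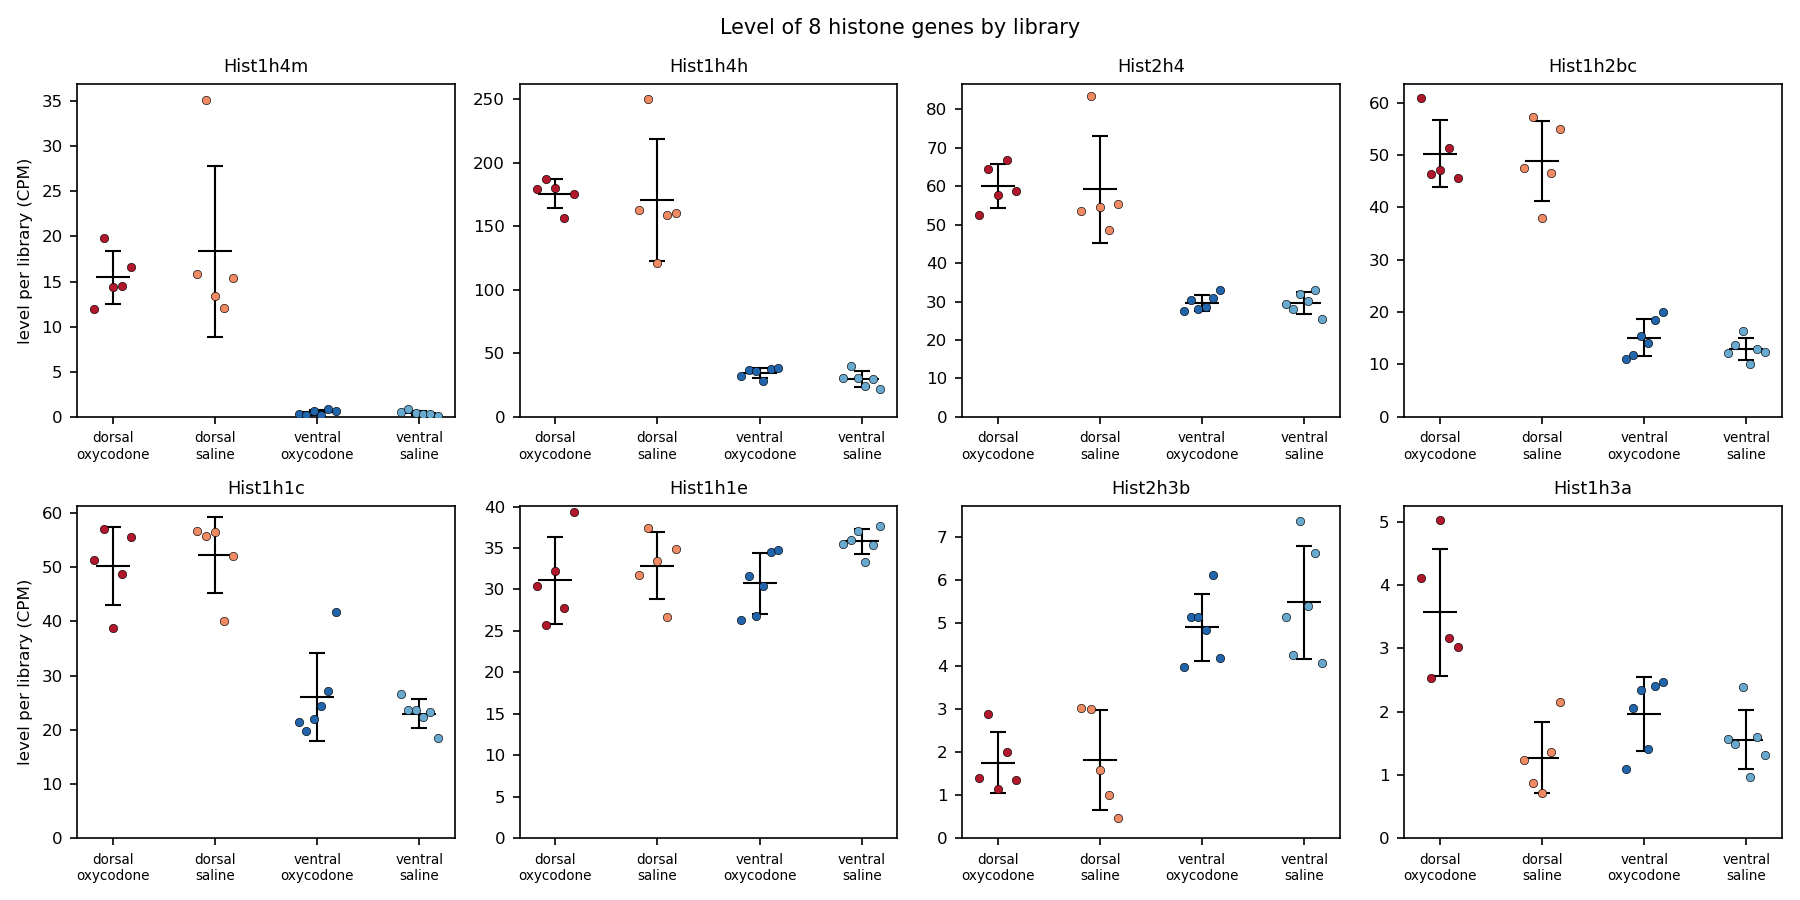
Level of 8 histone genes in each library, in CPM, for dorsal oxycodone, dorsal saline, ventral oxycodone and ventral saline striatum. Points are libraries, long bars the mean and whiskers the SD. Hist1h4m, Hist1h4h, Hist2h4 and Hist1h2bc are higher in every dorsal library, Hist2h3b is lower, Hist1h1e overlaps, and Hist1h3a is highest in dorsal oxycodone.

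Every dorsal library lay above every ventral one for 21 of 42 genes in oxycodone mice (15.1% of all genes) and for 20 of 39 in saline mice (16.3%). It lay below for 1 gene, Hist2h3b, in each (12.9% and 14.1%). When the difference itself was tested against 2-fold, an alternative added after the data had been seen, 8 histone genes in oxycodone mice (1.34% of all genes) and 10 in saline mice (2.06%) were higher. None was lower, against 0.807% and 1.5% of all genes. Without both replicates 6 of the ventral striatum, 29 of 42 genes were higher and 1 lower in oxycodone mice (24.9% and 22.6% of all genes), and 23 of 38 were higher and 1 lower in saline mice (27.3% and 23.4%). With dorsal counts halved, the calls were 28 of 40 higher and 1 lower in oxycodone mice (25% and 23.2% of all genes), and 24 of 37 higher and 1 lower in saline mice (23.8% and 22.8%). By position, 8 of 12 tested genes of the chromosome 13 block from 21715763 to 22043676 were higher in oxycodone mice and 6 of 10 in saline mice, against 14 of 22 and 16 of 21 in the block from 23531050 to 23764406 (23.5% and 23.6% of all genes).

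Among the H4 genes, Hist1h4m and Hist1h4n had the most sequence in common with other genes and differed most between regions. The share of a transcript's 50-base runs that occur in another gene was 89.8% for Hist1h4m and 85.6% for Hist1h4n, against 10.2% for Hist1h4d, 7.89% for Hist4h4 and 1.01% for Hist2h4. Runs were matched on either strand to any annotated gene, so a gene that overlaps at the same place also counts. Hist1h4b, for example, overlaps 4930558J22Rik on the opposite strand. Across the 13 H4 genes, which come from the same libraries and share sequence with each other, the share and the log2 change had a Pearson r of 0.70 in oxycodone and 0.73 in saline mice (Spearman rho 0.68 and 0.64). Hist1h4m and Hist1h4n, near-identical to each other, entered as separate points, and no correlation was computed without them. Among the rest, Hist1h4j at 24.6% shared changed more than Hist1h4k at 71.5% and Hist1h4b at 75.9% in both comparisons. Over the other classes, r was -0.36 across 29 genes and -0.41 across 26 (rho -0.21 and -0.25). The 7 tested histone genes with under 10% shared had a median log2 change of 0.92 in oxycodone mice, where 6 were called higher against 21.9% of all genes with so little shared, and 0.99 in saline mice, where 5 were, against 22.2%. Those with at least 50% shared had medians of 0.73 and 0.77, with 8 of 18 and 5 of 14 called higher and 1 lower in each. These shares, 44.4% and 35.7%, were near those of all genes with at least 50% shared, 39.5% and 34.8%. All tested genes of any kind with at least 50% shared had a median of 0.30 in both comparisons. How reads that map to several genes were counted is not given in the sources used here, so values of Hist1h4m, Hist1h4n and others of high share are uncertain for the single gene.

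**Figure D4:**
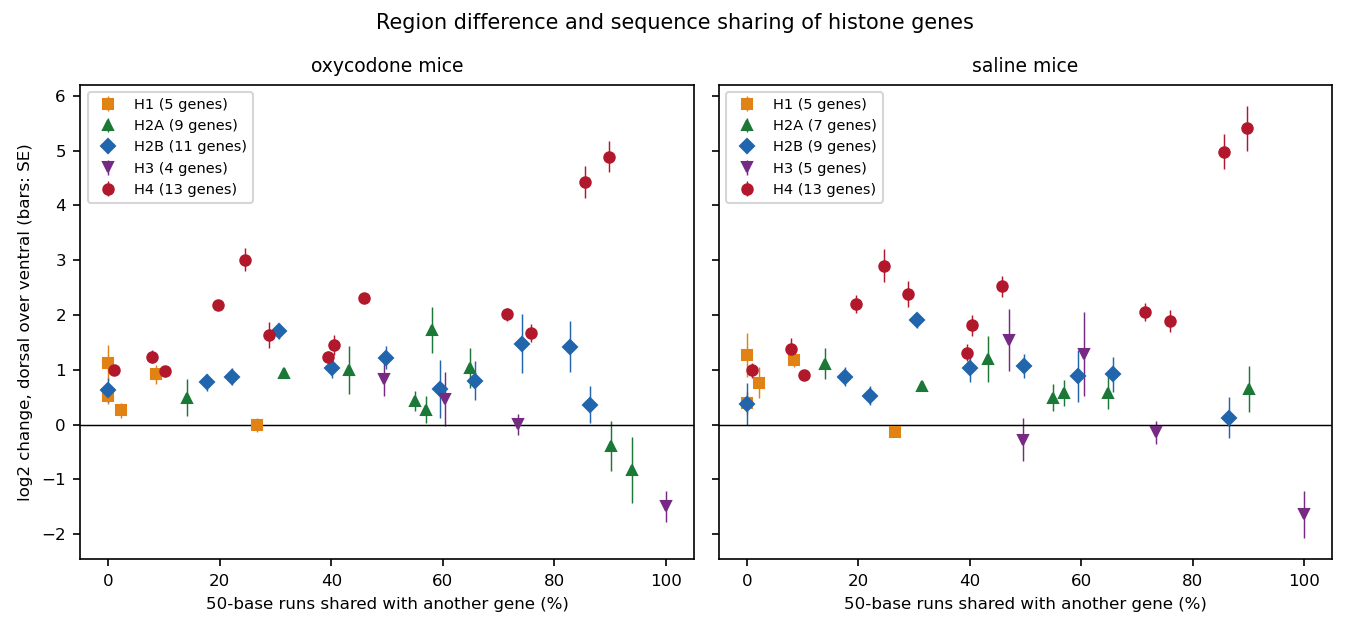
Log2 change, dorsal over ventral striatum, with SE bars, against the share of each transcript's 50-base runs found in another gene, for histone genes tested in oxycodone and saline mice. H4 genes from 1.01% to 75.9% shared lie between 0.91 and 3.00, Hist1h4m and Hist1h4n lie above 4, and Hist2h3b at 100% lies below 0.

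Markers of some cell types also differed between regions. The shares of all genes to set beside them were 23.5% higher and 23.7% lower in oxycodone mice, and 23.6% and 22.3% in saline mice. Of 11 oligodendrocyte markers, 6 were higher in dorsal striatum of oxycodone mice and 9 in saline mice, and none was lower. Their summed level was 2948 to 4411 CPM in dorsal oxycodone and 1305 to 3378 CPM in ventral oxycodone libraries, and 3128 to 4066 CPM in dorsal saline and 467 to 1903 CPM in ventral saline libraries, with no marker at 0. Of 10 markers of neuroblasts and immature neurons, 1 was higher and 7 lower in oxycodone mice, and 1 higher and 5 lower in saline mice. Their summed level was 442 to 494 CPM in dorsal oxycodone and 447 to 617 CPM in ventral oxycodone libraries, and 452 to 524 CPM in dorsal saline and 419 to 606 CPM in ventral saline libraries. Of the markers of choroid plexus and ependyma, 2 of 11 were higher in oxycodone mice, no more than the share of all genes. In saline mice 9 of 10 of these markers were higher. Their summed level was 93.6 to 3324 CPM in dorsal oxycodone and 40.9 to 1832 CPM in ventral oxycodone libraries, and 400.2 to 3640 CPM in dorsal saline and 24.2 to 57.5 CPM in ventral saline libraries, where up to 3 markers were at 0 in a library. Of 10 microglia markers, 6 were higher and 1 lower in oxycodone mice, and 7 higher and 1 lower in saline mice. Summed, they had 501 to 610 CPM in dorsal oxycodone and 362 to 479 CPM in ventral oxycodone libraries, and 473 to 502 CPM in dorsal saline and 345 to 427 CPM in ventral saline libraries, with no marker at 0. Markers of glutamatergic neurons were lower in 4 of 9 and 4 of 8 tested and higher in none. Together these had 55.2 to 179.6 CPM in dorsal oxycodone and 77.1 to 507 CPM in ventral oxycodone libraries, and 70.1 to 189 CPM in dorsal saline and 72.0 to 1581 CPM in ventral saline libraries. The part of these cell types in the histone differences was not tested.

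Genes of DNA replication and cell division were also compared between regions. Of 36 such genes in the table, 26 were tested in oxycodone mice, with 5 higher and 3 lower in dorsal striatum (23.5% and 23.7% of all genes). In saline mice 28 were tested, with 4 higher and 1 lower (23.6% and 22.3% of all genes). Their summed level was 289 to 332 CPM in dorsal oxycodone and 258 to 336 CPM in ventral oxycodone libraries, and 284 to 335 CPM in dorsal saline and 226 to 305 CPM in ventral saline libraries, so the regions overlapped. Mcm7, part of the replicative helicase, was higher in dorsal striatum (log2 0.51 ± 0.09 and 0.75 ± 0.12, SE). Ccne1, cyclin E1, was lower in saline mice (log2 -1.07 ± 0.20, SE).

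Histone genes outside the clusters gave a mixed picture. Of all genes tested, 23.5% were higher and 23.7% lower in dorsal striatum of oxycodone mice, and 23.6% and 22.3% in saline mice. Of 10 tested genes of variant histones, 5 were higher and 2 lower in dorsal striatum of oxycodone mice, and 4 were higher and 1 lower in saline mice. H2afj, an H2A variant gene, averaged 30.3 ± 5.25 CPM in dorsal and 11.8 ± 2.66 CPM in ventral oxycodone libraries, and 27.4 ± 3.71 CPM in dorsal and 10.4 ± 3.64 CPM in ventral saline libraries (SD). Its log2 change was 1.32 ± 0.16 and 1.39 ± 0.21 (SE). The 2 genes that code for histone H3.3 went opposite ways. H3f3a was higher (log2 0.66 ± 0.10 in oxycodone and 0.62 ± 0.16 in saline mice, SE), and H3f3b was lower (log2 -0.42 ± 0.07 and -0.57 ± 0.09, SE). Of 20 tested chaperones, which carry histones to and from DNA, 1 was higher and 13 lower in oxycodone mice and 2 were higher and 12 lower in saline mice. Examples are Atrx, with log2 changes of -0.65 and -0.51, and Supt16, a subunit of the FACT complex, with -0.69 in oxycodone mice. Of 17 genes for the 3′ ends and decay of histone mRNA, 4 were higher and 3 lower in oxycodone mice. In saline mice 4 were higher and 4 lower, so the counts of this list were near the shares of all genes. Upf1, a helicase of mRNA decay, was higher (0.61 and 0.40), and Fip1l1, a subunit of the cleavage and polyadenylation machinery, was lower (-0.73 and -0.59).

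Oxycodone was next compared with saline within each region. No histone gene passed the test in either. In dorsal striatum 44 were tested and 0 called, against 0.206% of all 14595 genes (0.00685% lower), with a smallest adjusted p of 0.493 and 3 genes at an unadjusted p under 0.05 by edgeR. In ventral striatum 33 were tested and 0 called, against 0% of all 14116 genes, with a smallest adjusted p of 0.503 and 3 genes at an unadjusted p under 0.05 by edgeR. DESeq2 and limma-voom also called 0 histone genes in each region. Of all genes they called 0.574% and 0.219% in dorsal and 0.292% and 0.432% in ventral striatum. The median log2 change was 0.03 in dorsal striatum, where 25 changes were positive and 19 negative, and 0.09 in ventral striatum, where 23 were positive and 10 negative. Without both replicates 6 of the ventral striatum, 13 were positive and 20 negative there. Over all genes the medians were -0.008 and -0.003. All 13 H4 genes together averaged 804 ± 54.0 CPM in dorsal oxycodone and 791 ± 145 CPM in dorsal saline libraries (SD, n = 5 each), and 268 ± 17.4 CPM in ventral oxycodone and 257 ± 26.8 CPM in ventral saline libraries (SD, n = 6 each).

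Hist1h3a, an H3 gene of cluster 1 (chromosome 13, 23761853 to 23762386), had the lowest p in dorsal striatum. Its level was 4.11, 2.53, 5.03, 3.16 and 3.01 CPM in dorsal oxycodone and 1.24, 0.879, 0.719, 1.37 and 2.15 CPM in dorsal saline libraries. Every oxycodone library was above every saline one, which held for 0.843% of all genes tested there and for 1 of the 44 histone genes. The reverse held for 0.459% of all genes and 0 histone genes. In ventral striatum, separation in either direction was seen in 0 of 33 histone genes, against 0.312% of all genes higher and 0.446% lower. The log2 change was 1.47 ± 0.52 (SE, edgeR adjusted p = 0.493). DESeq2 gave an adjusted p of 0.12, and the alternatives ranged up to 0.864. In ventral striatum it had 1.09 to 2.47 CPM, median 2.20 CPM, in oxycodone and 0.972 to 2.38 CPM, median 1.53 CPM, in saline libraries, with a log2 change of 0.34 ± 0.26 (SE). Next in dorsal striatum, Hist3h2a had 92.3, 103, 105, 93.0 and 97.1 CPM in oxycodone and 80.002, 71.1, 78.1, 91.4 and 99.3 CPM in saline libraries, which overlapped, at a log2 change of 0.22 ± 0.10 (SE, edgeR adjusted p = 0.799). Hist1h2bl had 4.22, 2.07, 3.45, 1.29 and 3.73 CPM in oxycodone and 0.710, 2.46, 0.432, 0.729 and 1.96 CPM in saline libraries, with a log2 change of 1.23 ± 0.59 (SE, edgeR adjusted p = 0.876). Hist1h1d had a log2 change of -0.27 ± 0.17 (SE), which was -0.01 without dorsal saline replicate 1, its highest library at 67.5 CPM.

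In ventral striatum the lowest p was that of Hist1h1e, with 26.3 to 34.7 CPM, median 31.1 CPM, in oxycodone and 33.3 to 37.6 CPM, median 35.7 CPM, in saline libraries. Of the 6 oxycodone libraries, 4 were below all saline ones and 2 overlapped them, and the log2 change was -0.21 ± 0.08 (SE, edgeR adjusted p = 0.503). Hist1h4i had 3.42 to 8.23 CPM, median 4.05 CPM, in oxycodone and 2.55 to 4.17 CPM, median 2.96 CPM, in saline libraries. Its log2 change was 0.58 ± 0.23 (SE, edgeR adjusted p = 0.508) with all libraries and 0.34 without oxycodone replicate 1, the highest. Hist2h2ab had 1.98 to 3.19 CPM, median 2.38 CPM, in oxycodone and 2.70 to 3.85 CPM, median 3.27 CPM, in saline libraries, with a log2 change of -0.39 ± 0.16 (SE, edgeR adjusted p = 0.514). Hist1h4h changed by 0.24 ± 0.13 (SE, edgeR adjusted p = 0.59).

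**Figure D5:**
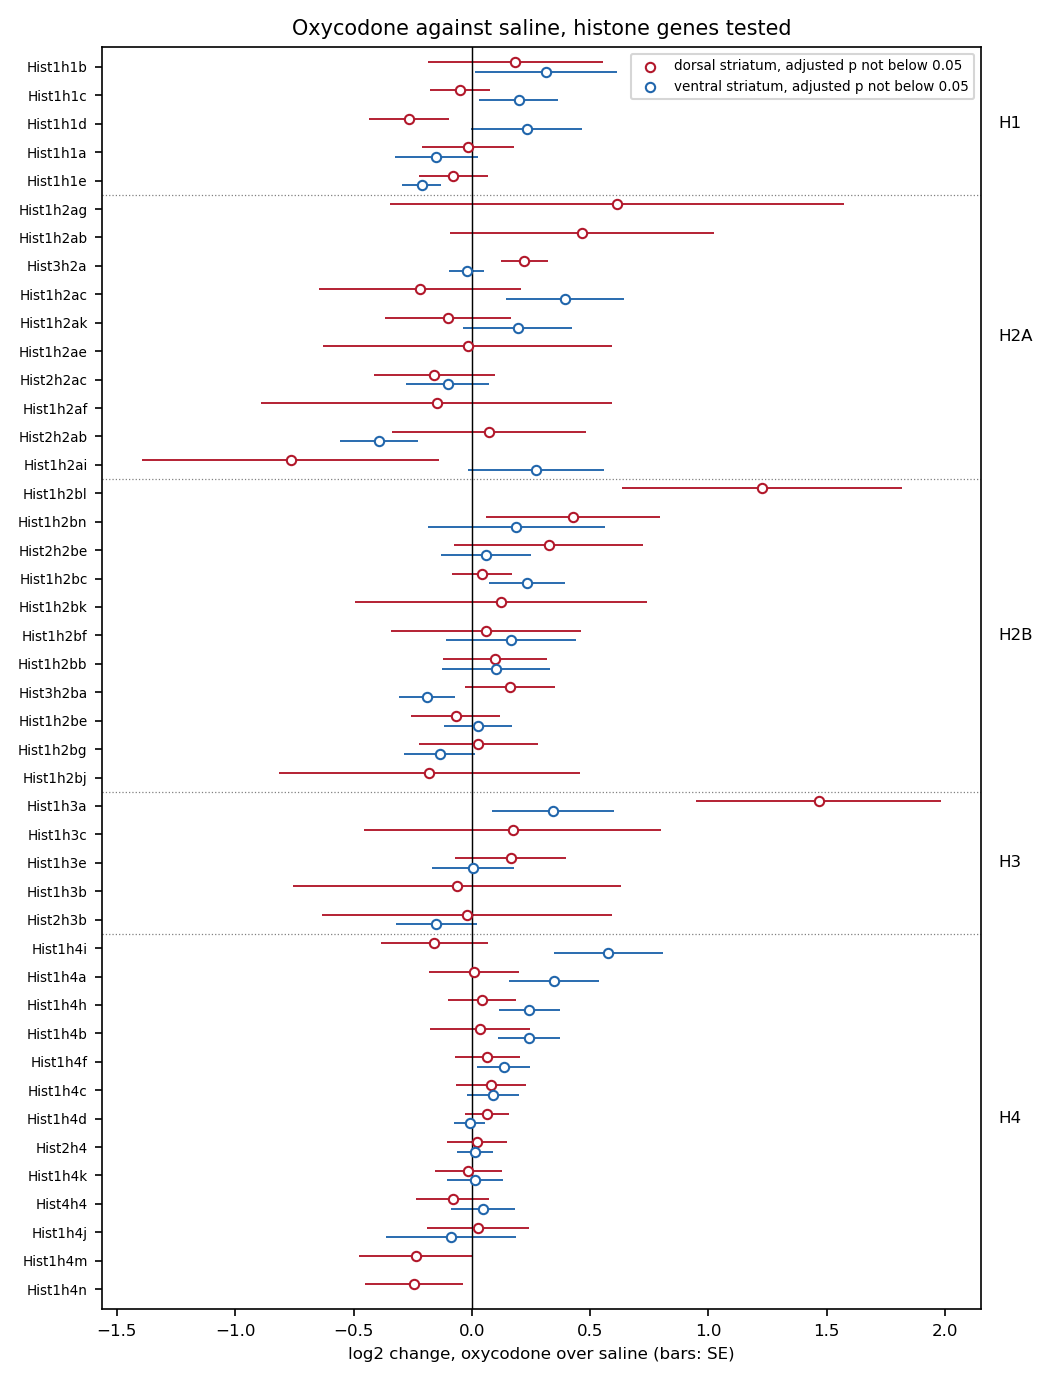
Log2 change of each tested histone gene, oxycodone over saline, in dorsal and ventral striatum, ordered by class, with SE bars. Open points did not pass an adjusted p of 0.05. All points are open, most lie within 0.5 of 0, and Hist1h3a in dorsal striatum lies farthest to the right at 1.47.

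Whether the oxycodone effect differed between regions was tested over all 22 libraries. Of 44 histone genes 0 were called, against 0% of all 14938 genes, with 2 at an unadjusted p under 0.05 by edgeR and a smallest adjusted p of 0.981. DESeq2 and limma-voom called 0. Hist1h3a differed by 1.13 ± 0.49 and Hist1h4i by -0.73 ± 0.35 on the log2 scale (dorsal minus ventral effect, SE), the 2 lowest p of the list. None of the variant histone, chaperone, 3′ end or S phase genes was called between oxycodone and saline in either region. Of these, Top2a, a topoisomerase of dividing cells, averaged 11.3 ± 4.31 CPM in dorsal oxycodone and 6.15 ± 2.14 CPM in dorsal saline libraries (SD, n = 5 each), at a log2 change of 0.87 ± 0.29 (SE, edgeR adjusted p = 0.438).

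Single libraries carried much of the spread within groups. Among the 10 dorsal libraries, dorsal saline replicate 2 was the highest for 19 of the 44 histone genes tested, or 43.2%, against 17.4% of all genes. Dorsal saline replicate 3, whose title has the same number and an added P of unstated meaning, was the lowest for 13, against 11.8% of all genes. Hist1h4h stood at 249.9 CPM in replicate 2 and 121 CPM in replicate 3, the highest and the lowest of the dorsal saline group. Without replicate 2 the median log2 change between regions in saline mice was 0.81. Among the 12 ventral libraries, oxycodone replicate 5 was the highest for 7 of 33 histone genes, or 21.2%, against 6.83% of all genes, and it also had the highest summed level of S phase genes, at 336 CPM. Saline replicate 6 was the lowest for 12 of 33, against 24.7% of all genes.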

How the data were processed

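Counts per gene for 22 libraries of ribosome-depleted total RNA were deposited by the authors as whole numbers, not normalized. CASAVA 1.8.2, STAR 2.3 and featureCounts are named, with the builds mm10, GRCm38 and mm9, per the submitters' processing notes. The role of each build, and the treatment of strand, mates and multi-mapping reads, are not given in the sources used here. Gene IDs were matched to GENCODE M21 (22205 of 23119 rows).

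Each comparison was fitted on its own libraries with edgeR 4.0.16 in R 4.3.3 (TMM, filterByExpr, robust quasi-likelihood test), the interaction on all 22. P-values were Benjamini-Hochberg adjusted over all genes, with a threshold of 0.05. The SE is the log2 change divided by the square root of F. The code was tested on simulated counts. Alternatives were other scalings, no filter, DESeq2 1.42.0, limma 3.58.1 voom, libraries left out or summed, lane, title suffix P, and a replicate block. A test against 2-fold, halved dorsal counts and an unpaired fit of the paired libraries were added after seeing the data. Named genes were the 8 highest by mean CPM, the 4 lowest p per comparison, up to 12 largest changes past the threshold at 1 CPM or more, and up to 3 per other list. Members and lists were chosen with earlier results of these data known. Dorsal oxycodone replicates 2 and 3, and dorsal saline replicates 2 and 3, share a title number. The titles of dorsal oxycodone replicates 3, 4 and 5 and dorsal saline replicates 3 and 4 end in P, which is not explained.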

Additional observations from a re-analysis of the deposited data

Results flagged for a closer look

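A library lay far from the rest of its group, by Dixon's 95% criterion, in 13 of 116 groups examined, and chance flags about 1 in 20 groups. Dorsal saline replicate 2 was high for Hist1h4c, at 156 CPM with the next library at 97.9 CPM, for Hist2h4, at 83.5 CPM with the next at 55.5 CPM, and for Hist1h4m, at 35.1 CPM with the next at 15.8 CPM. Ventral saline replicate 6 was low for Hist1h1d, at 9.25 CPM with the next at 23.9 CPM, and for the H1 class sum, at 75.4 CPM with the next at 95.9 CPM. Hist1h1d was also high in dorsal oxycodone replicate 1, at 38.7 CPM with the next at 33.2 CPM, and in dorsal saline replicate 1, at 67.5 CPM with the next at 37.2 CPM. Hist1h1c was high in ventral oxycodone replicate 6, at 41.8 CPM with the next at 27.1 CPM, and low in dorsal saline replicate 4, at 40.1 CPM with the next at 52.0 CPM. Hist1h4i was high in ventral oxycodone replicate 1, at 8.23 CPM with the next at 4.51 CPM. Hist1h2ai was high in dorsal oxycodone replicate 5, at 3.16 CPM with the next at 0.862 CPM. Hist1h2bk was high in ventral saline replicate 5, at 0.962 CPM with the next at 0.524 CPM. The H2B class sum was high in dorsal oxycodone replicate 2, at 161 CPM with the next at 139 CPM.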

How the results depend on the processing

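Between regions, the number of histone genes called in either direction was 24 to 30 in saline mice and 26 to 32 in oxycodone mice when 1 library at a time was left out. With all libraries it was 27 of 39 tested in saline and 29 of 42 in oxycodone mice, against 45.8% and 47.2% of all genes. Against a 2-fold difference it was 10 and 8. With a replicate block by title number it was 25 and 29, against 26 and 28 for the same libraries unpaired. Whether equal title numbers mark the same mouse is not stated, and a low correlation between regions would not exclude it. Correlations of same-numbered libraries were -0.0824 to 0.0442 in saline and -0.045 to 0.349 in oxycodone mice. Of the dorsal libraries, 0 of 5 and 1 of 5 correlated best with their own number. The median log2 change in saline mice was 0.82 with limma-voom. Within a region, no label names the yoked partner of a mouse, and oxycodone and saline libraries share no title number. The tests between treatments therefore took the libraries as unpaired, and any pairing by yoking was left out. Between oxycodone and saline, 0 histone genes were called in every fit run. Hist1h1e between regions in oxycodone mice, -0.01, changed sign with library totals (0.032), no filter (0.0053), limma-voom (0.025), both replicates 6 left out (0.049), the replicate block (0.11), the same libraries unpaired (0.12) and halved dorsal counts (0.0091), and ran from -0.076 to 0.065 with 1 library left out. Hist1h2bk in oxycodone mice passed in 4 of 11 such fits. The causes were not tested. The 12 genes too low for any test had 0% to 100% of their 50-base runs shared, and whether depth or read assignment kept them low was not tested.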
